A study of Mus musculus with 208 samples.

Results

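The 8 genes Clec7a, Itgax, Cst7, Lpl, Spp1, Axl, Apoe and Cd68 are part of the program that microglia switch on beside damaged neurons, known as the disease-associated microglia signature. They were taken by mouse symbol from the 39179 genes of a striatal RNA-seq series, and all 8 were found. Their Ensembl identifiers in the files are ENSMUSG00000079293, ENSMUSG00000030789, ENSMUSG00000068129, ENSMUSG00000015568, ENSMUSG00000029304, ENSMUSG00000002602, ENSMUSG00000002985 and ENSMUSG00000018774, in the order just given.

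The series measured polyadenylated RNA of the whole striatum, the forebrain region that degenerates first in Huntington's disease, in heterozygous knock-in mice on a C57BL/6 background. Each knock-in line carries a human HTT exon with a CAG repeat in one copy of the mouse Htt gene, so the mutant protein is made wherever Htt is expressed and no line is confined to one cell type. The long-repeat lines were Q80, Q92, Q111, Q140 and Q175, named by their repeat, and the Q20 line, with a repeat in the normal range, was the allelic control. Mice of 2, 6 and 10 months were used, with 8 libraries in each of 26 groups. Of these groups 18 were knock-in and 8 were wild type. At 6 months each of the 6 lines had its own group of wild-type cage mates, whereas at 2 and at 10 months there was 1 wild-type group, housed with Q20. By their labels groups held 4 mice of each sex, but Q80 at 2 months had 3 females, and Q20 at 10 months had 5. The labels do not say that animals were pooled. The comparisons asked how the genes changed with repeat length and with age.

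Microglia are the resident macrophages of the brain. In mouse models of Alzheimer's disease and other neurodegeneration they lower their homeostatic genes, such as P2ry12 and Tmem119, and raise genes for lipid handling, lysosomes and uptake of debris; Apoe is placed in an early step of this change, and Axl, Clec7a, Itgax, Cst7 and Lpl in a later one that needs the receptor Trem2. Several of these genes are also used by other brain cells in health. Apoe, the main lipid carrier of the brain, is made largely by astrocytes, and Lpl and Spp1 are expressed by some neurons.

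The promoters of Clec7a, Itgax and Cst7 are shown because these 3 genes carried the largest differences. Each stretch runs 5′ to 3′ on the gene's own strand from 250 bases before the annotated start to 50 bases after it, as given by RefSeq for GRCm38.p6; 7 of the 8 genes had an entry, Lpl being the one without. The Clec7a window is chr6:129472730-129473029 on the minus strand, the Itgax window chr7:128129300-128129599 on the plus strand and the Cst7 window chr2:150570165-150570464 on the plus strand. Capitals mark matches to the motifs GAGGAA (the type bound by PU.1, the ETS factor of the myeloid lineage) and TGANTCA (the type bound by AP-1), searched on both strands.
Clec7a: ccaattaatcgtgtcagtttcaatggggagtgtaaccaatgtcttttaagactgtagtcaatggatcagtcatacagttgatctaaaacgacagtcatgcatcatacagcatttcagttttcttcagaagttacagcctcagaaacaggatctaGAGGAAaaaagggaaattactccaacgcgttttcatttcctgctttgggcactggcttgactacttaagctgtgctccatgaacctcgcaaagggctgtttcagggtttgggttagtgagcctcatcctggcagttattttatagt
Itgax: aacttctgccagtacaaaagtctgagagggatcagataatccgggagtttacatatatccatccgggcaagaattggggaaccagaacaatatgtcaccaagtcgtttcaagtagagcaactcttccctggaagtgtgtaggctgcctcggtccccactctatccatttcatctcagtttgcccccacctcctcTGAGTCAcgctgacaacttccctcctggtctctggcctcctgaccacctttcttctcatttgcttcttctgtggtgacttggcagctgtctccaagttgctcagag
Cst7: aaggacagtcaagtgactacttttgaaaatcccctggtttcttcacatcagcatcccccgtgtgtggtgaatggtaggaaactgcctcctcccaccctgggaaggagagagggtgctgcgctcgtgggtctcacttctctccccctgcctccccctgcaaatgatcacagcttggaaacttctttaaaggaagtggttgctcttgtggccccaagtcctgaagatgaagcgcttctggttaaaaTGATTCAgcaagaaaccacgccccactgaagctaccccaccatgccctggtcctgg
GAGGAA began at position -96 from the start in Clec7a. TGANTCA began at position -56 in Itgax and at position -6 in Cst7. Among 32851 windows of the same length, 28.3% held GAGGAA and 7.81% held TGANTCA on either strand. The E-box CACGTG, held by 7.15% of windows, was found in none of the 3 windows. These matches describe letters and not occupied sites.

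Summed counts per library, in units of 1000000, ran from 29.1 to 49.6 with a median of 35.7, and they were deeper at 6 months (median 41.0) than at 2 months (31.9) or 10 months (33.0). At 2 months 5 libraries stood apart, with a median correlation to the other libraries under 0.97: 1 of Q80, 2 of Q92 and 2 of Q20. Mitochondrial transcripts made up 20.5% to 24.1% of their counts, against 11.4% to 17.4% in the rest at that age. 1 library labelled male, in Q80 at 2 months, had no Y-linked counts and was kept under its label; no member passed over Q20 in that group with or without it. The tissue label was borne out by 14 medium spiny neuron markers, summed to 5054 ± 484 counts per 1000000 (CPM) in Q175 and 8737 ± 921 CPM in Q20 at 10 months (SD, n = 8 each). Of these markers 13 were lower in Q175 than in Q20 at 6 and at 10 months. Of all genes 18.2% were lower at 6 months, and 24.5% were called in either direction at 10 months. At 10 months Scn4b, a sodium channel subunit, changed by -1.32 on the log2 scale (SE 0.0815, adjusted p = 7.11e-19), and Penk, the enkephalin precursor, by -1.04 (SE 0.0893, adjusted p = 1.44e-13).

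Per transcript length the 8 genes spanned a wide range. Group means of the authors' FPKM were 897 to 1319 for Apoe, 14.9 to 20.1 for Lpl, 10.9 to 13.9 for Axl, 9.81 to 12.3 for Cd68 and 9.18 to 21.1 for Spp1. Clec7a had group means of 0.157 to 1.40 FPKM, Cst7 of 0.0616 to 0.986 FPKM and Itgax of 0.0600 to 0.490 FPKM. The first 5 are thus abundant in striatum, and the last 3 are rare transcripts with 5 to 121, 0 to 42 and 3.25 to 88.5 deposited counts per library. Cst7 was at 0 in 6 libraries. In GENCODE M21, Clec7a carries the type polymorphic_pseudogene and Spp1 shares its place with Gm42793; how the authors' counting treated strand is not given in the sources used here, so reads of these 2 overlapping genes may have been split between them.

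Clec7a, Itgax and Cst7 were raised in Q175 striatum at 10 months and passed the test in no other long-repeat line at that age. Clec7a encodes Dectin-1, a pattern recognition receptor that signals through Syk. Itgax encodes CD11c, the alpha chain of complement receptor 4. Cst7 encodes cystatin F, an inhibitor of lysosomal cysteine proteases.

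At 10 months Clec7a stood at 2.00, 2.57 and 3.56 CPM (lowest, median and highest of 8) in Q175, and at 0.576, 1.03 and 1.27 CPM in Q20. Itgax stood at 1.05, 1.90 and 2.82 CPM in Q175, and at 0.507, 0.694 and 0.791 CPM in Q20. Cst7 stood at 0.603, 1.01 and 1.23 CPM in Q175, and at 0.239, 0.266 and 0.452 CPM in Q20. For each of the 3 genes, all 8 Q175 libraries lay above all 8 Q20 libraries. How many of all genes separate in this way was not counted, here or in the comparisons below. The means were 2.62 ± 0.510 against 0.977 ± 0.249 CPM for Clec7a, 1.93 ± 0.515 against 0.677 ± 0.0981 CPM for Itgax and 0.944 ± 0.210 against 0.295 ± 0.0699 CPM for Cst7 (Q175 against Q20, SD, n = 8 each). In edgeR's quasi-likelihood test with Benjamini-Hochberg adjustment over 17170 genes, Clec7a was 2.66-fold higher (log2 fold change 1.41, SE 0.143, adjusted p = 1.9e-11). Itgax was 2.97-fold higher (1.57, SE 0.169, adjusted p = 1.03e-10) and Cst7 3.20-fold higher (1.68, SE 0.265, adjusted p = 1.81e-06). These are the 3 of 8 members that rose in this comparison, in which 12.4% of all genes tested were called higher and 24.5% in either direction. The median log2 fold change was 0.17 over the 8 members and 0.01 over all genes. On the log2(FPKM + 1) scale the difference of Clec7a was 0.67 and passed. That scale kept genes with at least 1 FPKM in 8 libraries, which Clec7a met only through Q175 (lowest 1.01 FPKM). The highest Q20 library had 0.722 FPKM. Clec7a thus entered through the group where it is high, and this pass adds no support. In whole tissue, more microglia and more RNA per microglial cell cannot be told apart.

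**Figure D1:**
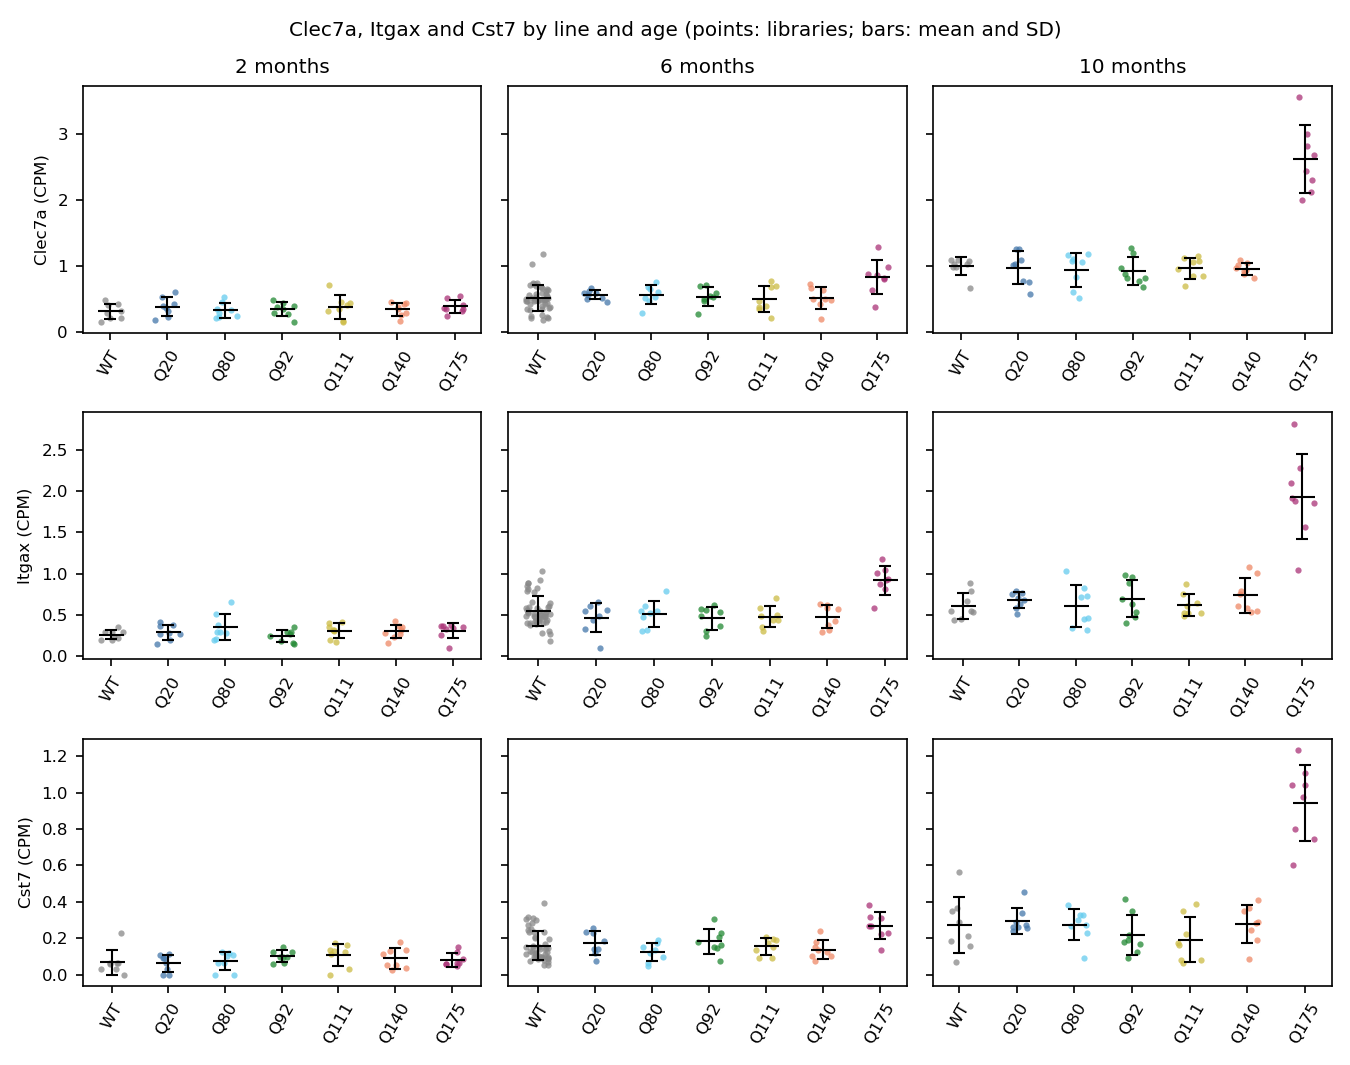
Clec7a, Itgax and Cst7 in CPM (y axis) for each library (points) by line and age, with bars for group means and SD; the 6-month wild-type column holds the 48 libraries of 6 cages. At 10 months the Q175 libraries stand above every other group's mean for all 3 genes (2.62, 1.93 and 0.944 CPM on average in Q175).

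The rise was present in both sexes. Among females of 10 months the log2 difference between Q175 and Q20 was 1.35 for Clec7a, 1.43 for Itgax and 1.46 for Cst7. Among males it was 1.46, 1.70 and 1.95. All 6 values passed the test, at a background of 6.11% of genes higher in females and 3.88% in males. No gene of the whole table passed a test of whether the difference between Q175 and Q20 depended on sex, at any age (0 called).

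The 8 Q175 animals of 10 months differed among themselves. Female 2 had the lowest level of all 3 genes, with 2.00 CPM of Clec7a, 1.05 CPM of Itgax and 0.603 CPM of Cst7. Male 4 had the highest Clec7a (3.56 CPM) and Cst7 (1.23 CPM), while female 4 had the highest Itgax (2.82 CPM). Even in female 2 each gene lay above the highest Q20 library.

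At 6 months the same 3 genes had intermediate levels in Q175. Clec7a stood at 0.378, 0.847 and 1.29 CPM in Q175, and at 0.461, 0.579 and 0.673 CPM in Q20. Itgax stood at 0.579, 0.925 and 1.18 CPM in Q175, and at 0.103, 0.517 and 0.658 CPM in Q20. Cst7 stood at 0.136, 0.269 and 0.384 CPM in Q175, and at 0.0769, 0.162 and 0.258 CPM in Q20. The groups overlapped for all 3 genes, with 7 of 8 Q175 libraries above all Q20 libraries for Itgax, 6 of 8 for Clec7a and 5 of 8 for Cst7. Itgax was 1.97-fold higher (log2 0.98, SE 0.201, adjusted p = 4e-05) and Clec7a 1.47-fold higher (0.55, SE 0.216, adjusted p = 0.0368), while Cst7 missed the threshold at a log2 difference of 0.61 (SE 0.275, adjusted p = 0.0722). In this comparison 18% of all genes were called higher and 18.2% lower, so 2 of 8 members higher and 2 of 8 lower is near that background. The call on Clec7a was lost on leaving out any one of 8 libraries, 3 of Q175 (females 1, males 1 and 3) and 5 of Q20 (females 1 and 4, males 1, 2 and 4), with log2 values of 0.46 to 0.55 and adjusted p up to 0.104. It was also lost on the log2(FPKM + 0.1) scale (0.34, adjusted p = 0.141) and without a filter on low counts (0.56, adjusted p = 0.0540). Cst7 passed without male 3 of Q175 (0.72, adjusted p = 0.0359) or male 2 of Q20 (0.72, adjusted p = 0.0430). It passed as well on the log2(FPKM + 0.1) scale (0.49, adjusted p = 0.0336), with all wild types of the age as the reference (0.74, adjusted p = 0.00158), with only the compared groups in the fit (0.61, adjusted p = 0.0457) and with the homeostatic microglia score (0.74, adjusted p = 0.0296).

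All 3 genes were higher in 6-month Q175 mice than in the wild-type mice of their cages. The medians in Q175 were 0.847 CPM of Clec7a, 0.925 CPM of Itgax and 0.269 CPM of Cst7, whereas the cage mates had 0.255, 0.464 and 0.538 CPM of Clec7a (lowest, median and highest), 0.400, 0.507 and 0.788 CPM of Itgax, and 0.0925, 0.133 and 0.236 CPM of Cst7. The 2 groups overlapped for each gene. The log2 differences were 0.91 for Clec7a (SE 0.222, adjusted p = 0.000647), 0.80 for Itgax (SE 0.198, adjusted p = 0.000773) and 0.96 for Cst7 (SE 0.286, adjusted p = 0.0057), with 15.7% of all genes called higher. The Q175 libraries are the same in both comparisons. The 6 wild-type groups of 6 months passed a test of difference at none of the 8 members and at 1.34% of all genes, and Q20 differed from wild type at none of them at any age (called were 0% of genes in the youngest mice, 0.0227% in those of 6 months and 0.0116% in those of 10 months).

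At 2 months no member passed the test between Q175 and Q20. Clec7a averaged 0.395 ± 0.101 CPM in Q175 and 0.389 ± 0.144 CPM in Q20, and Itgax 0.308 ± 0.0937 CPM in Q175 and 0.289 ± 0.0903 CPM in Q20 (SD, n = 8 each). None of the 7 members tested passed in edgeR's quasi-likelihood test, nor did any have an unadjusted p under 0.05, and 0.218% of all genes were called. Cst7 had too few counts at that age to be tested, with 0.0805 ± 0.0368 CPM in Q175 and 0.0622 ± 0.0463 CPM in Q20.

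The Q175 effect grew with age for Clec7a and Itgax. In a fit of all 3 ages, the log2 difference between Q175 and Q20 was larger at 10 than at 2 months by 1.34 for Clec7a (SE 0.301, adjusted p = 0.00116) and by 1.47 for Itgax (SE 0.301, adjusted p = 0.000282), with 2.26% of genes called in that direction. The same difference for Cst7 was 1.37 (SE 0.556, adjusted p = 0.119). Between 2 and 6 months it passed for Itgax alone (0.91, SE 0.303, adjusted p = 0.0440; 3.45% of genes), a call that was lost without the 5 libraries that stood apart (0.88, adjusted p = 0.0691). Between 6 and 10 months no member passed, with 0.83 for Clec7a (SE 0.275, adjusted p = 0.485), 0.56 for Itgax (SE 0.267, adjusted p = 0.869) and 1.05 for Cst7 (SE 0.409, adjusted p = 0.743); unadjusted p was under 0.05 for these 3, and 0.0112% of all genes passed.

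**Figure D2:**
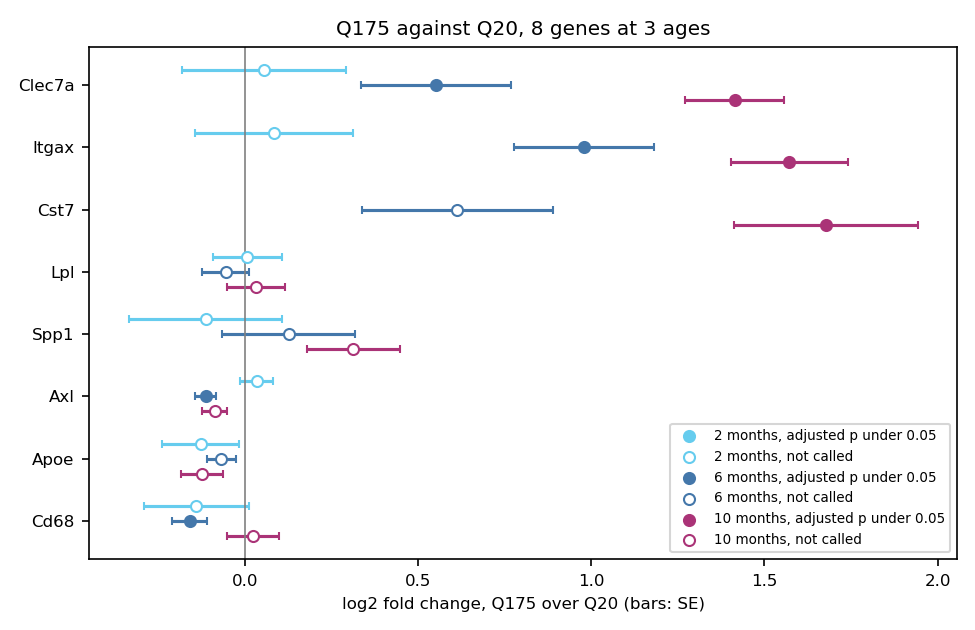
Log2 fold change of Q175 over Q20 (x axis, with bars of 1 SE) for each member (y axis) at 2, 6 and 10 months; filled points passed the test and open points did not. Clec7a, Itgax and Cst7 lie at 1.41, 1.57 and 1.68 at 10 months, and no other member is above 0.31 at that age.

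Levels of the 3 genes were also higher at later ages in mice without a long repeat. Over wild-type and Q20 libraries together, Clec7a averaged 0.354, 0.530 and 0.989 CPM at 2, 6 and 10 months (n = 16, 56 and 16). Itgax averaged 0.274, 0.534 and 0.641 CPM, and Cst7 0.0650, 0.161 and 0.284 CPM. These levels are set side by side and were not tested between ages. Libraries were scaled within each age, so levels of different ages may also differ by scaling or sequencing. With that limit, Q175 at 6 months had 0.838 CPM of Clec7a and 0.267 CPM of Cst7, both below the 10-month control means. Its 0.919 CPM of Itgax was above the 10-month control mean.

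Among the lines the order at 10 months left Q175 alone at the top. For Clec7a the group means were 1.001 ± 0.139 CPM in wild type, 0.977 ± 0.249 CPM in Q20, 0.949 ± 0.257 CPM in Q80, 0.932 ± 0.210 CPM in Q92, 0.972 ± 0.158 CPM in Q111, 0.965 ± 0.0915 CPM in Q140 and 2.62 ± 0.510 CPM in Q175. For Itgax they were 0.606 ± 0.160, 0.677 ± 0.0981, 0.608 ± 0.255, 0.693 ± 0.225, 0.617 ± 0.134, 0.737 ± 0.210 and 1.93 ± 0.515 CPM in the same order of lines. For Cst7 they were 0.274 ± 0.155, 0.295 ± 0.0699, 0.275 ± 0.0871, 0.217 ± 0.111, 0.190 ± 0.124, 0.277 ± 0.104 and 0.944 ± 0.210 CPM. Apart from Q175, neighbours in this order differed by less than their SDs for all 3 genes.

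Q140, the line nearest to Q175 in repeat length, did not pass for any of the 3 genes. Against Q20 at 10 months its log2 differences were -0.02 for Clec7a (95% interval -0.32 to 0.28), 0.17 for Itgax (-0.19 to 0.52) and -0.08 for Cst7 (-0.68 to 0.51). Medium spiny neuron markers had the same count of calls in both lines, with 13 of 14 lower and a median log2 fold change over Q20 of -0.68 in Q175 and -0.67 in Q140. Of all genes 11.6% were lower in Q140, and 24.5% were called in either direction in Q175. Set directly against each other at 10 months, in a comparison chosen after these values were seen, Q175 exceeded Q140 by 1.44 for Clec7a (SE 0.143, adjusted p = 8.91e-10), 1.41 for Itgax (SE 0.166, adjusted p = 9.26e-08) and 1.76 for Cst7 (SE 0.265, adjusted p = 3.26e-05). In this comparison 71 genes were called, 0.414% of all tested, and 0.402% were higher in Q175, so that 3 of 8 members stood among few genes. All 8 Q175 libraries lay above all Q140 libraries for Clec7a and Cst7, and 7 of 8 did for Itgax, whose highest Q140 library reached 1.07 CPM. Q175 and Q140 are separate lines, and repeat length and line cannot be told apart here. At 6 months Itgax passed between Q175 and Q140 (0.94, SE 0.201, adjusted p = 0.0122; 0.85 and adjusted p = 0.0586 without male 1 of Q175), while Clec7a (0.68, adjusted p = 0.195) and Cst7 (0.95, adjusted p = 0.147) did not, and 0.21% of genes were called.

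**Figure D3:**
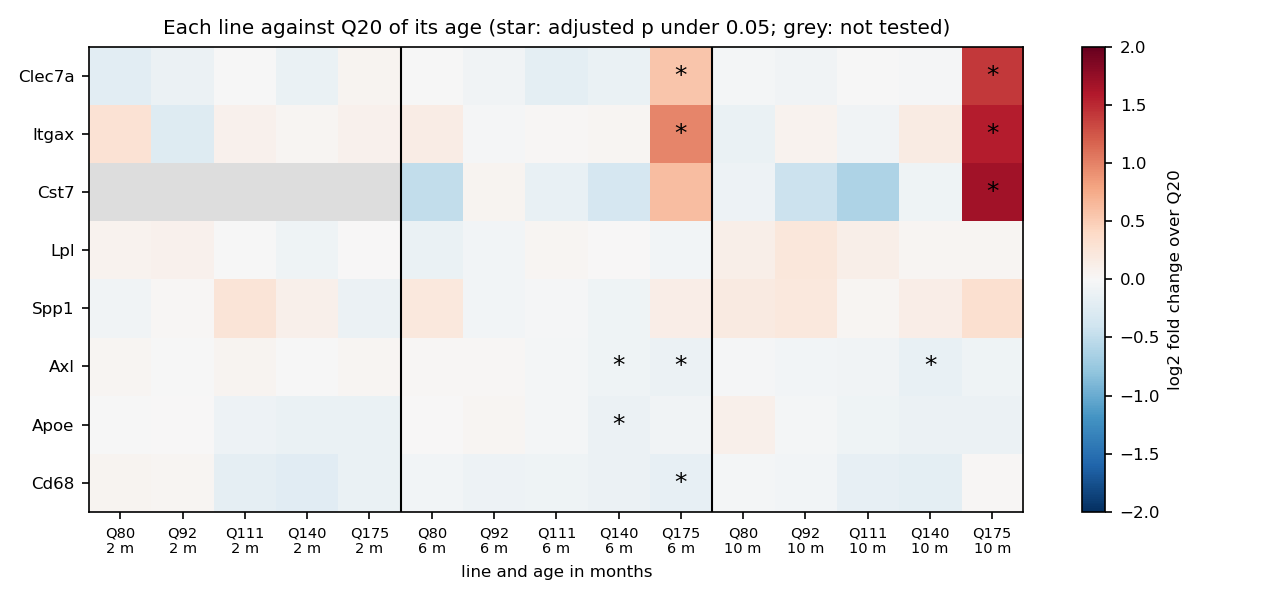
Log2 fold change over Q20 of each long-repeat line for the 8 members at 2, 6 and 10 months (colour scale), with a star where the test passed and grey where the gene was not tested. The largest values, 1.41 to 1.68, are in the Q175 column at 10 months for Clec7a, Itgax and Cst7.

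The shorter repeats gave no call over Q20 for any member at any age. In Q80, Q92 and Q111 at 10 months 0.122%, 1.12% and 12.5% of all genes were called, and at 6 months 0.289%, 5.99% and 12.8%. At 2 months the shares were 0.0118%, 0% and 0.0176%, with 0% in Q140, and none of the 7 members tested passed in any of these lines. Against wild-type cage mates at 6 months Lpl was higher in Q111 (log2 0.24, SE 0.0673, adjusted p = 0.0142), 1 of 8 members at a background of 4.28% of genes higher, and no member passed in Q80 or Q92 (0.051% of genes each). All 5 long-repeat lines were set against the same Q20 libraries, so their differences share that control.

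In a straight-line trend over the repeat, the rises of Clec7a, Itgax and Cst7 rested on Q175. Per 10 CAG at 10 months Clec7a rose by 0.087 (adjusted p = 5.79e-07), Itgax by 0.10 (adjusted p = 1.33e-07) and Cst7 by 0.12 (adjusted p = 4.22e-05), and Axl (-0.0080, adjusted p = 0.00417) and Apoe (-0.011, adjusted p = 0.0182) fell; 17% of all genes rose and 16.1% fell with the repeat. Without the Q175 libraries the slopes were -0.0013 for Clec7a, 0.011 for Itgax and -0.022 for Cst7, and none passed. Axl still passed as lower without Q175, Apoe no longer passed (-0.011, adjusted p = 0.117) and Cd68 did (-0.017, adjusted p = 0.0223). At 6 months Itgax rose by 0.056 per 10 CAG (adjusted p = 0.000187) while Axl (-0.0089, adjusted p = 5.9e-05), Apoe (-0.0071, adjusted p = 0.0202) and Cd68 (-0.0099, adjusted p = 0.00382) fell, at a background of 21.2% up and 20.4% down. Without Q175 the 6-month call was kept by Axl and lost by Itgax (0.0022, adjusted p = 0.948), Apoe (-0.0083, adjusted p = 0.0534) and Cd68 (-0.0098, adjusted p = 0.0520). At 2 months none of 7 members passed and 0.447% of genes did. These p-values count libraries, whereas the repeat differs only between 6 lines.

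The receptor Axl, a TAM family tyrosine kinase that binds Gas6 on dying cells, was lower in the longest repeats at 6 months. It stood at 48.7, 52.0 and 56.2 CPM in Q175, at 50.04, 51.5 and 57.0 CPM in Q140 and at 54.4, 56.7 and 58.5 CPM in Q20. The ranges overlapped, with 7 of 8 Q175 libraries and 5 of 8 Q140 libraries under the lowest of Q20. Over Q20 the log2 fold change was -0.11 in Q175 (SE 0.0301, adjusted p = 0.00165) and -0.09 in Q140 (SE 0.0302, adjusted p = 0.0157). Over their own wild-type cage mates it was -0.12 in Q175 (adjusted p = 0.000546), the 1 member of 8 that fell there (16.1% of genes), and -0.12 in Q140 (adjusted p = 0.00129). With scores of cortical, choroid plexus and meningeal genes as covariates, the falls of Axl in Q140 over Q20 did not pass, with a 6-month value of -0.08 (adjusted p = 0.0961) and a 10-month value of -0.11 (adjusted p = 0.0621), and with the homeostatic microglia score the 6-month fall did not pass (-0.06, adjusted p = 0.170). At 10 months Axl averaged 46.9 ± 1.27 CPM in Q175, 44.8 ± 2.92 CPM in Q140 and 49.7 ± 1.86 CPM in Q20, with a log2 fold change of -0.15 in Q140 (SE 0.0365, adjusted p = 0.00137), the 1 member of 8 lower there (11.6% of genes), and of -0.09 in Q175 (SE 0.0365, adjusted p = 0.0742), which passed without female 5 of Q20 (-0.11, adjusted p = 0.0238). On the log2(FPKM + 1) scale the 6-month falls of Axl over Q20 did not pass, at -0.04 in Q175 (adjusted p = 0.241) and -0.04 in Q140 (adjusted p = 0.311). The median over all genes on that scale was 0.07 in Q175 and 0.05 in Q140, against 0.01 in each on counts.

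Cd68, a lysosomal membrane glycoprotein of macrophages, was lower in Q175 than in Q20 at 6 months. It stood at 10.9, 12.6 and 13.5 CPM in Q175 and at 12.9, 13.8 and 15.02 CPM in Q20, with overlapping ranges and a log2 fold change of -0.16 (SE 0.0502, adjusted p = 0.00827). On the log2(FPKM + 1) scale, where the median over all genes was 0.07, this fall was -0.07 and did not pass (adjusted p = 0.175). Against wild-type cage mates Cd68 did not pass (-0.07, SE 0.0503, adjusted p = 0.302). At 10 months Cd68 averaged 13.6 ± 1.69 CPM in Q175 and 13.6 ± 1.82 CPM in Q20, a log2 difference of 0.02 (adjusted p = 0.863), and in Q140 it was 11.7 ± 0.716 CPM (-0.20 over Q20, SE 0.0753, adjusted p = 0.0509). That difference passed without female 1 (-0.23, adjusted p = 0.0289), male 2 (-0.22, adjusted p = 0.0315) or male 3 (-0.22, adjusted p = 0.0314) of Q20, and with the cortical, choroid plexus and meningeal scores (-0.25, adjusted p = 0.0386), and it was 0.02 with the homeostatic microglia score as a covariate.

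Apoe passed in Q140 alone among the lines set against Q20. At 6 months it averaged 1119 ± 57.6 CPM in Q140 and 1208 ± 65.2 CPM in Q20, a log2 fold change of -0.11 (SE 0.0419, adjusted p = 0.0397), and it was as much lower against wild-type cage mates (-0.11, adjusted p = 0.0394). Apoe and Axl were thus 2 of 8 members lower in Q140 in each of these comparisons, at backgrounds of 14.1% and 11.7% of genes lower. Over Q20 the call on Apoe was lost without any one of females 1 and 3 and males 3 and 4 of Q20 (-0.09 to -0.11, adjusted p up to 0.110). In Q175 Apoe averaged 1152 ± 90.1 CPM at 6 months (-0.07 over Q20, adjusted p = 0.207) and 863 ± 77.2 CPM at 10 months, against 938 ± 94.1 CPM in Q20 of 10 months (-0.12, SE 0.0600, adjusted p = 0.130; -0.16 and adjusted p = 0.0484 without male 1 of Q20). With all wild types of 6 months as the reference, Apoe was lower in Q175 of that age (-0.10, adjusted p = 0.00823). Over its wild-type cage mates, 6-month Q175 passed as lower without male 4 of Q175 (-0.11, adjusted p = 0.0325). No comparison with Q20 called Apoe higher.

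Spp1, the secreted phosphoprotein osteopontin, had its highest group mean in Q175 at 10 months without passing the test. It stood at 23.2, 27.7 and 38.2 CPM in Q175 and at 18.9, 22.7 and 31.8 CPM in Q20, with overlapping ranges and a log2 difference of 0.31 (SE 0.135, adjusted p = 0.0835). It passed on the log2(FPKM + 1) scale (0.35, adjusted p = 0.0232) and without male 1 of Q20 (0.39, adjusted p = 0.0315). The median over all genes was 0.06 on that FPKM scale, against 0.01 on counts. Wild-type mice of the same age averaged 26.8 ± 5.26 CPM, Q92 27.0 ± 6.64 CPM and Q80 26.5 ± 5.52 CPM, so the group means ran close together. Over wild-type and Q20 libraries Spp1 averaged 14.4, 17.2 and 25.1 CPM at 2, 6 and 10 months.

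Lpl, lipoprotein lipase, which frees fatty acids from lipoprotein triglycerides, did not pass the test between Q175 and Q20. It averaged 69.6 ± 7.86 CPM in Q175 and 68.8 ± 10.9 CPM in Q20 at 10 months (log2 difference 0.03, adjusted p = 0.823), and 68.3 ± 4.83 CPM in Q175 and 71.0 ± 8.29 CPM in Q20 at 6 months (-0.06, adjusted p = 0.560). Group means ran from 62.2 CPM in wild type of the Q111 cages at 6 months to 83.9 CPM in Q92 at 2 months.

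**Figure D4:**
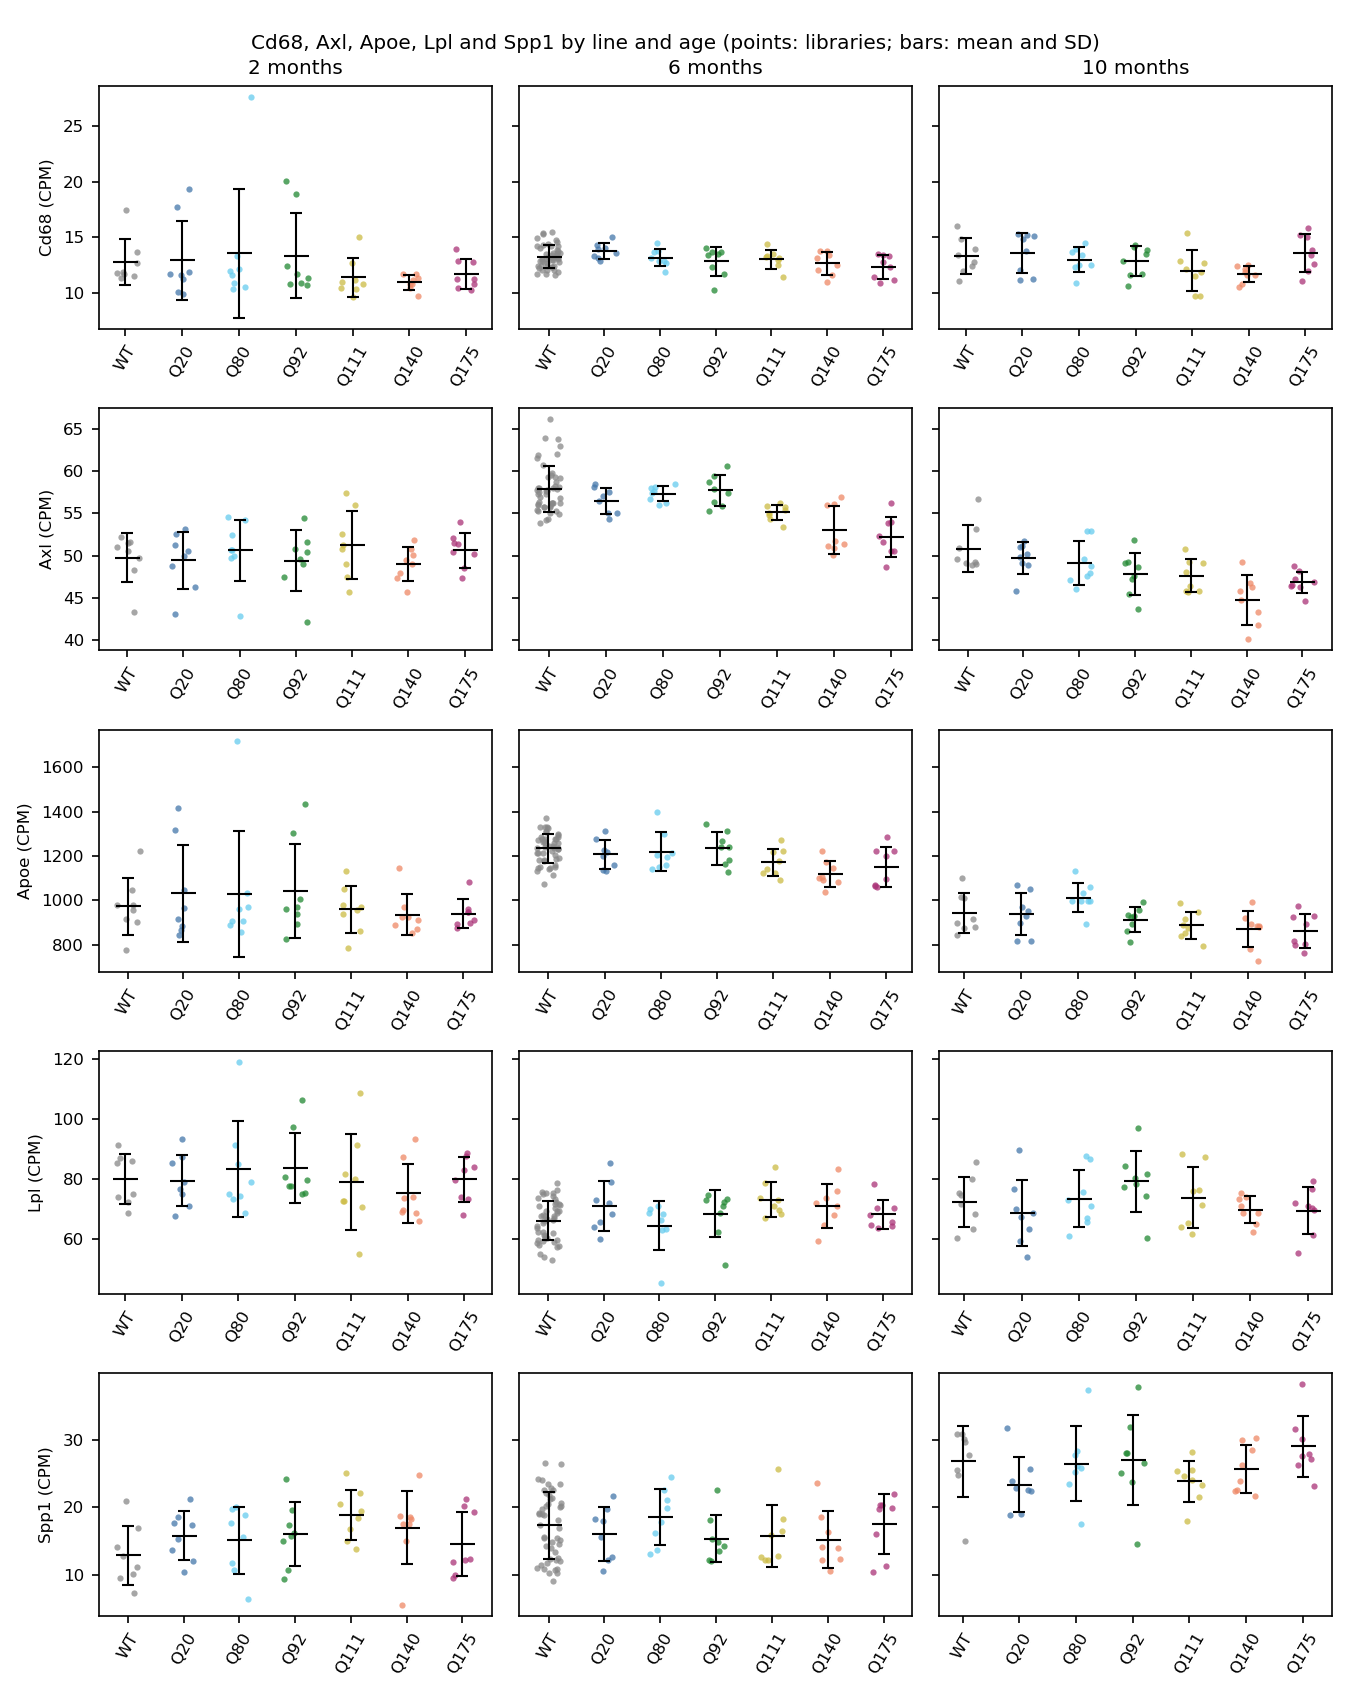
Cd68, Axl, Apoe, Lpl and Spp1 in CPM (y axes, which do not start at 0) for each library by line and age, with group means and SD. Q175 and Q20 overlap for all 5 genes at every age, and the Q80 library at 27.6 CPM of Cd68 at 2 months is 1 of the 5 that stood apart.

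Other genes of the same signature were also higher in Q175 at 10 months. Of 30 further signature genes 28 were tested, 14 were higher in Q175 than in Q20, where 12.4% of all genes were, and 0 were lower, with a median log2 fold change of 0.16. The largest rises were in Ccl3, a chemokine (1.26, SE 0.229, adjusted p = 2.55e-05), Lgals3, galectin 3 (1.03, SE 0.187, adjusted p = 2.4e-05) and Cd74, the invariant chain of antigen presentation (0.74, SE 0.163, adjusted p = 0.000437). At 6 months 4 were higher and 2 lower, led by Lgals3 (0.55, adjusted p = 0.0448), Cd52 (0.32, adjusted p = 0.0426) and Timp2 (0.32, adjusted p = 4.81e-15); that is no larger a share than the 18% of all genes higher and 18.2% lower in that comparison. In Q140 over Q20 the same list had 2 higher and 0 lower at 10 months. Of all genes 11.6% were lower there, and 3870 of 17170 were called in either direction. At 6 months the list had 1 higher and 8 lower in Q140. There 14.1% of all genes were lower and 4925 of 17642 were called in either direction, so the list was called lower more often than all genes. The list was put together with results of these data known.

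In Q175 at 10 months, the called changes among homeostatic and general microglia genes were smaller than the rises of Clec7a, Itgax and Cst7. The 14 homeostatic genes summed to 579 ± 31.1 CPM (540 to 618) in Q175 and 596 ± 31.5 CPM (553 to 638) in Q20 at 10 months; 1 of 14 was lower, the fractalkine receptor Cx3cr1 (-0.14, SE 0.0510, adjusted p = 0.0437), and none was higher. Of 13 general microglia and complement genes 3 were higher, where 12.4% of all genes were. These were the leukocyte phosphatase Ptprc (0.25, adjusted p = 0.0233), Ly86 (0.17, adjusted p = 0.0391) and the protease Ctss (0.17, adjusted p = 0.00988). The sum of the 13 genes was 411 ± 31.4 CPM (367 to 453.5) in Q175 and 387 ± 20.1 CPM (363 to 416) in Q20. With a score of the homeostatic genes as a covariate, the log2 fold changes at 10 months were 1.44 for Clec7a, 1.62 for Itgax and 1.74 for Cst7, and all 3 still passed. Homeostatic genes are lowered in this microglial program, so neither their sum nor this score measures microglial number, which was not tested. At 6 months 5 of 14 homeostatic genes were lower in Q175 and 0 higher, where 18.2% of all genes were lower. Among them were Fcrls (-0.18, adjusted p = 0.0131), Gpr34 (-0.18, adjusted p = 0.0079) and Tgfbr1 (-0.13, adjusted p = 0.00461). In Q140 8 of 14 were lower at 6 and at 10 months, where 14.1% and 11.6% of all genes were. In these 3 comparisons the list was called lower more often than all genes.

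Markers of other myeloid cells were low. The 8 border macrophage genes summed to 23.1 ± 1.88 CPM (20.3 to 25.8) in Q175 and 26.3 ± 2.43 CPM (21.5 to 29.3) in Q20 at 10 months, and 0 of 8 passed. Only 3 of 10 blood leukocyte genes had enough counts to be tested at 10 months and 0 passed; all 10 summed to 0.882 to 2.47 CPM in Q175 and 0.736 to 1.64 CPM in Q20. Ly6g, a neutrophil antigen, was at 0 in all but 1 library and Cd3e, of the T cell receptor complex, in 75.

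Calls among known partners of the members were no more frequent than among all genes. Of 29 receptors, ligands and signal partners tested, 3 were higher and 1 lower in Q175 than in Q20 at 10 months: the osteopontin receptors Itga4 (0.35, SE 0.104, adjusted p = 0.00986) and Cd44 (0.32, SE 0.0863, adjusted p = 0.00417), and Axl's relative Tyro3 (-0.26, SE 0.0499, adjusted p = 7.27e-05), with 1 further gene higher; 12.4% of all genes were called higher and 24.5% in either direction. At 6 months 4 were higher and 1 lower, including the lipid sensor Nr1h3 (0.27, adjusted p = 0.00314), Itgav (0.23, adjusted p = 7.43e-11) and again Tyro3 (-0.30, adjusted p = 1.46e-07). Beside the members' changes, 8 of 12 astrocyte genes were lower and 1, Gfap, higher in Q175 at 10 months (0.48, adjusted p = 0.000455), and 5 of 12 endothelial and mural genes were lower; their part in the members' values was not tested.

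Within groups, the members did not vary as one set. Correlations were computed over all libraries and 16866 genes on log2 CPM after removing the mean of each group and sex, and they describe libraries that share depth and dissection. Clec7a and Itgax had r = 0.315 with each other, Itgax and Cst7 r = 0.166, and Clec7a and Cst7 r = 0.0368, all from low counts. Among the 5 genes most like Clec7a were Lyz2 (0.392), which encodes a lysozyme of myeloid cells, Id2 (0.391), Cd84 (0.386) and Lpcat2 (0.371). Those most like Itgax were Csf2rb (0.364), Ptprc (0.347), Itgb5 (0.339), Csf3r (0.337) and Lag3 (0.336). For Cst7 the 5 leading genes, Fdxacb1, Samsn1, Fra10ac1, Mpp4 and Tspo, had r of 0.279 to 0.298, which at counts of 0 to 42 is weak.

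Lpl varied with medium spiny neuron genes, and Spp1 with Pvalb and with oligodendrocyte genes. Lpl was most like Lmo3 (0.883), Serpina9 (0.882), Plppr1 (0.871), Ppp3ca (0.860), a calcineurin subunit, and Kcnk2 (0.857), and its median r with 14 medium spiny neuron markers was 0.689. Spp1 was most like Pvalb (0.922), which marks fast-spiking interneurons and projection neurons of the neighbouring pallidum, and Kcng4 (0.894), Pln (0.893), Kcns3 (0.891) and Lrrc38 (0.839). The median r of Spp1 was 0.595 with 8 oligodendrocyte markers and -0.00865 with 14 homeostatic microglia genes. It was -0.271 with 14 medium spiny neuron markers and -0.201 with 8 cortical neuron markers.

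Axl, Apoe and Cd68 followed other genes again. Axl was most like Scd2 (0.667), followed by Itih5, Mast4 and Mvb12b, with a median r of 0.450 over 5 oligodendrocyte precursor genes and 0.356 over 12 endothelial and mural genes. Apoe was most like Rpl36 (0.885), Rabac1, Fbxo2, Selenom and Rplp1 (0.867), and Cd68 most like Actb (0.872), Sh3bgrl3, Selenow, Tspan7 and mt-Co3 (0.851). The median r with 13 general microglia genes was 0.685 for Cd68 and 0.573 for Apoe, and 0.450 and 0.367 without the 5 libraries that stood apart. Apoe and Cd68 had r = 0.583 with each other, and 0.263 without those libraries. Over the 14 lists and all libraries, Clec7a, Itgax, Cst7, Apoe and Cd68 had their highest median r with a microglial list. Lpl, Spp1 and Axl had theirs with a list of another cell type, so in whole striatum the signature's name was not borne out for these last 3 genes. Without the 5 libraries that stood apart, Cd68 was more like medium spiny neuron genes (0.499) than general microglia genes (0.450). For Itgax the lead was small, at 0.145 with homeostatic microglia genes and 0.144 with the 1 blood leukocyte gene kept.

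**Figure D5:**
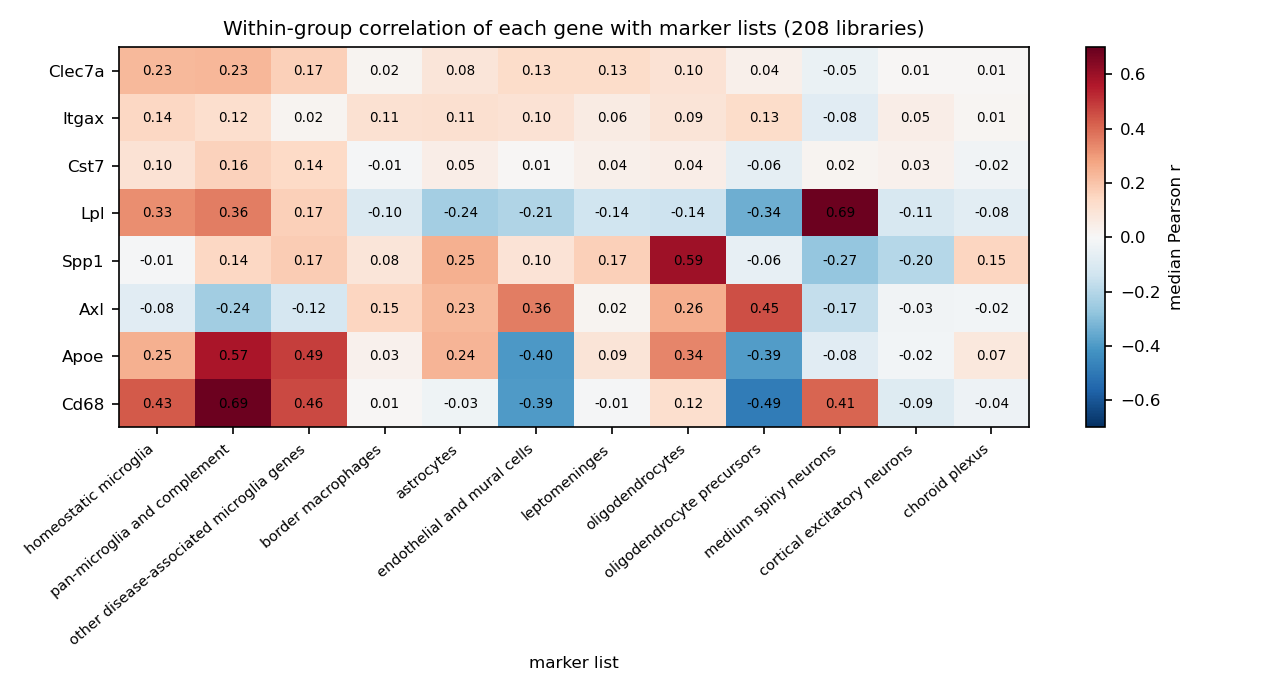
Median Pearson correlation (colour scale, over all libraries with group and sex means removed) between each member (rows) and the genes of 12 cell type lists (columns). Lpl stands out with medium spiny neuron genes (0.689), Spp1 with oligodendrocyte genes (0.595) and Cd68 with general microglia genes (0.685).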

How the data were processed

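Polyadenylated RNA of the striatum was sequenced on Illumina HiSeq instruments, with CASAVA 1.8.2 named in the submitters' processing notes; the sources used here name no aligner, build or annotation. The authors deposited expected counts per gene, of which 32.7% of non-zero values were not whole (tolerance 0.000001), and FPKM values, which are scaled by the authors to gene length and library depth. The expected counts were rounded to whole numbers for all tests. CPM values were computed from the counts and library sizes that were TMM-scaled within each age. FPKM was used only to compare levels between genes and as an alternative scale.

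Genes were filtered with edgeR 4.0.16 (filterByExpr, minimum count 10, minimum total 15) in R 4.3.3, leaving 17006 genes at 2 months, 17642 at 6 months, 17170 at 10 months and 17863 over all ages. TMM scaling and robust quasi-likelihood fits of all groups of an age, with sex as a covariate, gave 42 tests, each adjusted over all genes by Benjamini-Hochberg; called means an adjusted p under 0.05. The trend used the knock-in libraries, with a term for each wild-type group. The age difference came from 1 fit of all libraries. The labels make each library a separate sample and do not name the animal's litter, so p-values measure the spread between these libraries. Precision is limited by counting for the rare transcripts, in particular Cst7.

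Scripts were tested on simulated data. Alternatives were DESeq2 1.42.0, RLE scaling, limma 3.58.1 on log2(FPKM + 1) and log2(FPKM + 0.1), no count filter, other sample sets, cell type scores, a replicate block and leaving out single libraries. Gene symbols were matched for 37607 identifiers (96%). Besides the members, genes named from the 14 marker lists are up to 3 per list and comparison with the largest called change, and likeness is given for the 5 leading genes of each member, of which 1 for Clec7a and 1 for Axl are not reported here. The members and lists were chosen with earlier results of these data known. 2 listed symbols had no match. Promoters came from RefSeq (GRCm38.p6), and gene types from GENCODE M21; no coordinates of the authors' files were used.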

Additional observations from a re-analysis of the deposited data

Results flagged for a closer look

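Each of the 8 members was tested in each of the 26 groups, and in 17 of these gene and group pairs the highest or lowest library had a gap to its nearest neighbour that was large for the range of its group (Dixon's test at 95%), where chance gives about 1 in 20. Among the rare transcripts, all 6 were single low libraries, at 0.198 CPM of Clec7a in female 4 of Q140 at 6 months, 0.276 CPM of Clec7a in male 3 of Q92 at 6 months, 0.671 CPM of Clec7a in female 2 of the wild-type mice at 10 months, 0.0957 CPM of Itgax in male 3 of Q175 at 2 months, 0.102 CPM of Itgax in male 1 of Q20 at 6 months and 0.0928 CPM of Cst7 in male 1 of Q80 at 10 months. Low libraries were also seen for Lpl (45.5 CPM, female 3 of Q80 at 6 months), for Spp1 (5.63 CPM, male 1 of Q140 at 2 months; 15.1 CPM, female 2 of the wild-type mice at 10 months) and for Axl (45.8 CPM, female 5 of Q20 at 10 months; 42.9 CPM, male 5 of Q80 at 2 months; 43.3 CPM, female 1 of the wild-type mice at 2 months).

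High libraries were those with 1147 CPM of Apoe in female 4 of Q140, 1084 CPM in female 4 of Q175 and 1720 CPM in male 5 of Q80, and with 27.6 CPM of Cd68 in male 5 of Q80 and 17.5 CPM in female 1 of the wild-type mice, all at 2 months. Male 5 of Q80 was the lowest for Axl and the highest for Apoe and Cd68 in its group, and it was 1 of the 5 libraries that stood apart.

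The difference between Q175 and Q20 depended on age for Clec7a, where it was larger at 10 than at 2 months by 1.345 on the log2 scale, and for Itgax, where it was larger by 1.47 at 10 than at 2 months and by 0.906 at 6 than at 2 months.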

How the results depend on the processing

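Over all alternatives, counts of called members kept their value within 1.5 times in 864 of 920 comparisons. The rises of Clec7a, Itgax and Cst7 over Q20 at 10 months passed under every alternative run (27, 26 and 26), with log2 values of 0.67 to 1.57, 1.15 to 1.70 and 1.46 to 1.79, and on leaving out single libraries with 1.34 to 1.48, 1.51 to 1.69 and 1.61 to 1.79. For Clec7a the 27 include log2(FPKM + 1), where only its Q175 libraries met the filter, and that pass (0.67) adds no support. Itgax at 6 months passed under all 26.

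On log2(FPKM + 1), which keeps only genes with at least 1 FPKM in 8 libraries and so drops Clec7a, Itgax and Cst7 at 6 months, members higher in Q175 than in Q20 at 6 months and in the 6-month trend numbered 0; members lower numbered 0 in Q175 and Q140 over Q20 at 6 months and in the 10-month trend, and 1 in the 6-month trend. On log2(FPKM + 0.1), 0 were lower in Q175 or Q140 over Q20 or over wild type at 6 months and in either trend. On these 2 scales the median over all genes at 6 months was 0.0668 and 0.0699 in Q175 over Q20. In Q140 it was 0.0483 and 0.0549. On counts the medians were 0.00971 in Q175 and 0.0102 in Q140, so values on FPKM were shifted upward beside those on counts. Without a count filter, 1 was higher in Q175 and 1 lower in Q140 over Q20 at 6 months. With the homeostatic score, 0 were lower in Q140 at 6 months, 1 lower in the 10-month trend, 3 higher in the 6-month trend, and 1 (Lpl) higher in Q111 and in Q140 at 10 months. With the cortical, choroid plexus and meningeal scores, 2 were higher in the 6-month trend and 0 lower in the 10-month trend. With all wild types as the reference, 1 was higher (Lpl) and 1 lower (Axl) in Q111 at 6 months, and 1 lower (Axl) in Q175 at 10 months. With only the compared groups and with DESeq2, 1 was lower in Q175 (Axl) and 2 in Q140 at 10 months; RLE scaling also gave 2 in Q140. For the age difference from 2 to 6 months, 0 were higher with DESeq2 and without the libraries that stood apart, and 1 (Axl) was lower with DESeq2.

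Without Q175 the trends had 0 members higher at 10 and at 6 months and 1 lower at 6 months, with slopes of -0.0013 for Clec7a and -0.022 for Cst7 at 10 months. Without Q20, 3 were higher in the 6-month trend. Leaving out single libraries gave 1 to 2 members higher and 2 lower in Q175 over Q20 at 6 months, 1 to 3 lower in Q140 over Q20 at 6 months and 1 to 2 at 10 months, 0 to 1 lower in Q175 at 10 months, 1 to 2 lower in Q175 over wild type, and 0 to 1 higher in Q175 over Q140 at 6 months. The cause of these changes was not tested beyond what a smaller gene set or fewer samples imply.

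The replicate numbers were not taken as pairs in the main tests. Same-numbered libraries of Q175 and Q20 deviated together with r over 0.1 in 4 of 8, 6 of 8 and 2 of 7 sets at 2, 6 and 10 months. The r was -0.228 to 0.238 at 2 months, 0.0803 to 0.298 at 6 months and 0.0122 to 0.193 at 10 months. At these ages 1, 6 and 1 number sets correlated best with their own. Same-numbered libraries of 6 months thus shared part of their deviation, which the main tests leave out. With the replicate block, Clec7a, Itgax and Cst7 at 10 months had log2 values of 1.48, 1.58 and 1.67; 1 member (Lpl) was higher in Q92 at 10 months, and 1 (Axl) lower in the age differences from 2 to 10 and from 2 to 6 months. Members lower in Q140 over Q20 at 6 months numbered 3, with Cd68 (-0.12, adjusted p = 0.0497) beside Axl and Apoe. No other count of members changed under the block.

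Depth limits Cst7 most, which could not be tested at 2 months; differences of Clec7a or Itgax there that are small beside SEs near 0.3 on the log2 scale were not detectable.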
